A study of Mus musculus with 8 samples.

Results

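The 10 genes described here encode collagens and other matrix proteins that stromal cells of the gut wall secrete: Col1a1, Col1a2, Col3a1, Col5a1, Col6a1, Col4a1, Fn1, Sparc, Dcn and Lum. They were chosen by name, with earlier results of these data known, and are 10 of the 16309 genes named on the array. All 10 were found, through 18 probes, and the probe of each with the highest mean signal was well above background on all 8 arrays. The arrays measured mucosa of mouse rectum and of the middle colon, in male mice aged 10 to 12 weeks. Each of the 8 groups gave 1 array, from RNA pooled in equal parts from 5 mice, so there was no replicate within a group. The rectum groups were IL18ko stress, IL18ko control, WT stress and WT control, and the same 4 groups were taken in colon. IL18ko mice lack interleukin 18, a cytokine of the epithelium and of myeloid cells, and WT mice carry the normal gene; the labels name no strain. Stressed mice were housed alone, for 16 days by the treatment protocol and for 8 days by the description of the design, and control mice were group-housed brothers, which the design text describes as sampled before isolation.

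Fibrillar collagens are triple helices that assemble outside the cell into fibrils and carry tension. Type IV collagen forms the sheet of basement membranes, under epithelium and around vessels and muscle cells, and type VI collagen forms beaded filaments near cells. Fibronectin links cells to this scaffold, while the small proteoglycans decorin and lumican bind collagen fibrils and limit their width. In the gut mucosa these proteins are made largely by fibroblasts of the lamina propria, with shares from smooth muscle, endothelium and, for type IV collagen and fibronectin, epithelium.

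Levels are log2 intensities relative to the 75th percentile of the same array, so 0 is the level that 75% of probes fall below and 1 unit is a doubling. They compare 1 probe across arrays, never 1 gene with another. Il18, the gene absent from the knockout, lay at -7.95 to -7.57 on the 4 IL18ko arrays, all below background, and at 2.76 to 5.88 on the 4 WT arrays, all above it. The rectum arrays shared 1 slide and the colon arrays another, so any effect of the slide cannot be told apart from that of the tissue. On both slides each mouse group had the same position, so position and mouse group cannot be told apart either. Between 62.2% and 66.4% of spots lay well above background, and none was saturated. Fibroblast markers were present throughout, with 10 of 10 above background on each array. Their summed signal, in multiples of the 75th percentile, was 161 to 234 in rectum and 95.3 to 136 in colon. That sum follows mainly its brightest marker, Gsn, with mean log2 levels of 7.46 in rectum and 6.62 in colon. The mean log2 levels of the 10 markers overlapped, at 0.03 to 0.45 in rectum and -0.33 to 0.40 in colon. In RNA from whole mucosa, fewer cells of a type and less RNA per cell cannot be told apart.

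Windows of 250 bases before the start given in a promoter table from RefSeq (GRCm38.p6, 5′ to 3′ on the strand of the gene) were found for 6 of the 10 genes. For Col5a1 and Col4a1 the RefSeq gene record begins further upstream, inside the window, so the end of the window lies within the gene. It is shown for Col1a2, Col5a1 and Col3a1, whose fibril-forming products assemble together, and for Col4a1 of the basement membrane, which followed another course over the arrays. Capitals mark the CCAAT box (ATTGG where it lies on the other strand), the GC box GGGCGG (on the other strand CCGCCC) and the letters TATAAA (on the other strand TTTATA). Both strands were searched, and no 2 matches overlap.
Col1a2 (chr6:4505368-4505617, plus strand): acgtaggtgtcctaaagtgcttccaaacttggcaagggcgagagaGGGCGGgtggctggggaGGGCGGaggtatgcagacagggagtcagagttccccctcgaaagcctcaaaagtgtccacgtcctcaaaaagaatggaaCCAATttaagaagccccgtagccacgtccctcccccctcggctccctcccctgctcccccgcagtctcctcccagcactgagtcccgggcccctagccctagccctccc
Col5a1 (chr2:27886175-27886424, plus strand): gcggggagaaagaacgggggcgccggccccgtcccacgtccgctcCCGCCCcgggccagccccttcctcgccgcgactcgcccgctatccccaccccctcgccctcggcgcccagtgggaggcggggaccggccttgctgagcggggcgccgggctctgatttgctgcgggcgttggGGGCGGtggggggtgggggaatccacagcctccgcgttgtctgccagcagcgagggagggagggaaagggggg
Col3a1 (chr1:45311288-45311537, plus strand): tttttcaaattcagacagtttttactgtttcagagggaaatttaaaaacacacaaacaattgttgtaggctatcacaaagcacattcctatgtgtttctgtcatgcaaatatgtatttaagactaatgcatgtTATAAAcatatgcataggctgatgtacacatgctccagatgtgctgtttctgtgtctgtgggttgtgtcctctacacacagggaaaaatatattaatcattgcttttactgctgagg
Col4a1 (chr8:11312827-11313076, minus strand): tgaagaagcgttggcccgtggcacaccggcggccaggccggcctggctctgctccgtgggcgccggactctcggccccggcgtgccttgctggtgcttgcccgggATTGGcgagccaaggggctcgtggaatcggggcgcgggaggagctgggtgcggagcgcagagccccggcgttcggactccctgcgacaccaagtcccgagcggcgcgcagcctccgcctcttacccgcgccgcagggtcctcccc

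CCAAT, the box known to bind the CBF/NF-Y factor in type I collagen promoters, began 109 bases back from the end of the Col1a2 window. On the other strand it lay 145 bases back from the end of the Col4a1 window. The GC box lay 205 and 188 bases back in the Col1a2 window, and 205 and 73 bases back in that of Col5a1, the first of these on the other strand. TATAAA was found 117 bases back in the Col3a1 window. In all 32851 RefSeq windows of this length, the CCAAT box was held by 33.8%, the GC box by 32.7% and the third motif by 12.4%. The windows of Col5a1, Col4a1 and Col1a2 had 76.4%, 74.4% and 62.0% G and C bases, against 35.2% for Col3a1 and a median of 52.4% over all windows. Those of Col6a1 and Sparc held none of the 3 motifs. Col1a1, Fn1, Dcn and Lum are given by name.

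**Figure D1:**
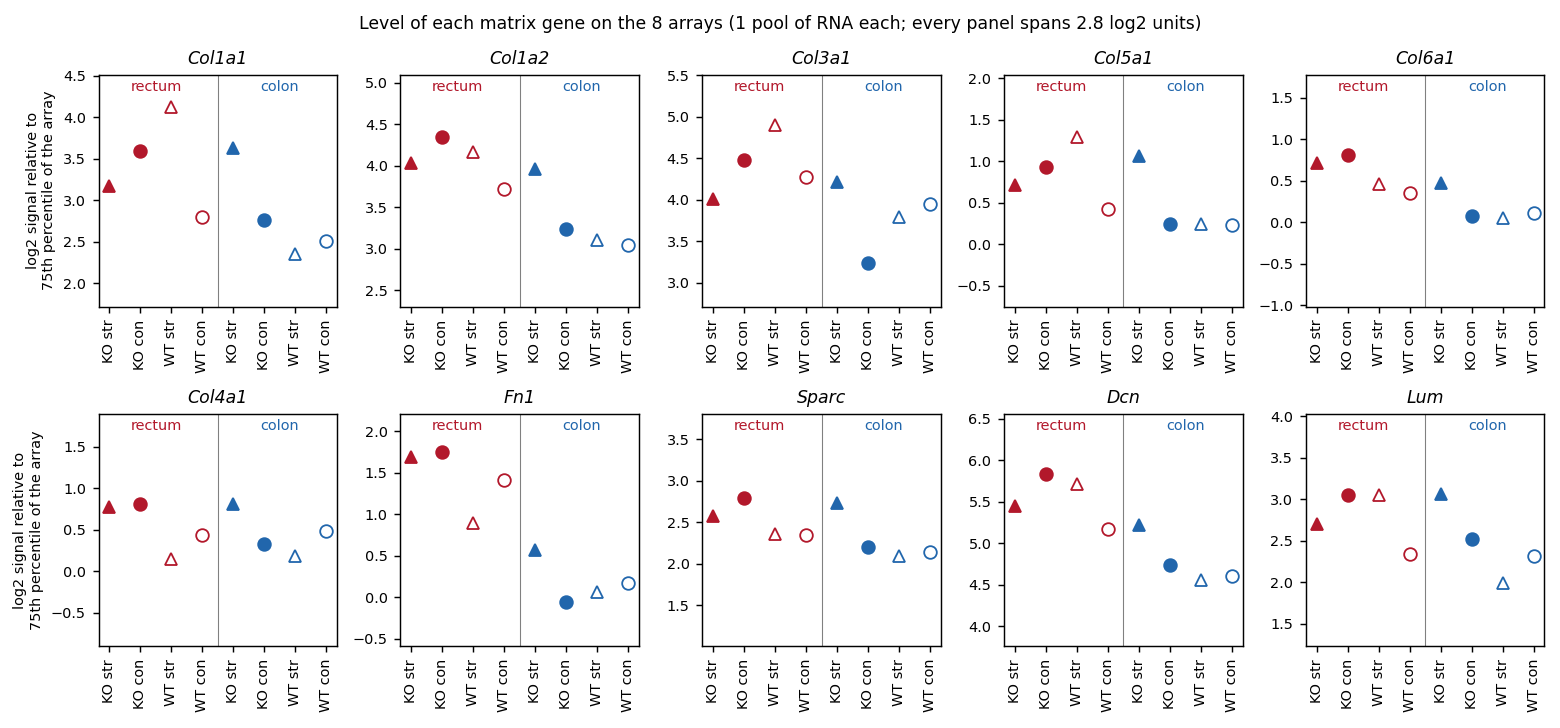
Level of each of the 10 matrix genes on the 8 arrays (log2 signal of the brightest probe relative to the 75th percentile of the array). Red is rectum and blue is colon, filled symbols are IL18ko and open ones WT, triangles are stress and circles control; each symbol is 1 array. The IL18ko stress array is the highest of the 4 colon arrays for all 10 genes, and Fn1 alone has all its rectum arrays above all its colon arrays.

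The first comparison asked how rectum differs from the middle colon, over 4 pairs matched for genotype and housing. The labels do not tell whether 1 set of mice gave both tissues, so pairs may not be independent. This bears most on the genotype and stress comparisons below. There the colon and rectum pairs may share mice, and limma p-values may be too small. Fibronectin, decorin and the alpha 2 chain of type I collagen were higher in rectum, and none of the 10 genes was called lower. Calls are probes at an adjusted p under 0.05 in limma, with Benjamini-Hochberg adjustment over all 26265 probes tested. Of the 12716 genes tested, 29.9% were called, 14.1% higher and 15.8% lower, so 3 of 10 called higher stands against 14.1% of all genes. The estimate was above 0 for 10 of 10 matrix genes and for 53.6% of all genes. Their median difference was 0.51, and that of all genes was 0.03.

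Fn1 encodes fibronectin, which assembles into fibrils through integrins on the cell surface. Its levels in rectum were 1.69 (IL18ko stress), 1.75 (IL18ko control), 0.89 (WT stress) and 1.41 (WT control), and in colon 0.56, -0.06, 0.06 and 0.17 in the same order of groups. Every rectum array was above every colon array, a separation that 17.0% of all genes showed in this direction and that no other of the 10 genes showed. Fn1 was 1.25 ± 0.17 higher in rectum (log2, SE from limma, n = 4 pairs; 2.38-fold; adjusted p = 0.00243), and higher in 4 of 4 pairs. Its second probe, also called, gave 1.23 ± 0.21, and the third was above background on 4 rectum arrays but only 1 colon array. The call held under each alternative processing and without any 1 pair, with the value between 1.07 and 1.39 and a highest limma adjusted p of 0.0201.

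Dcn encodes decorin, a proteoglycan that binds collagen fibrils and also TGF-beta. It stood at 5.45, 5.83, 5.72 and 5.17 in rectum (IL18ko stress, IL18ko control, WT stress, WT control), and at 5.23, 4.73, 4.56 and 4.60 in the matching colon groups. Only the IL18ko stress colon array reached the range of the rectum arrays. Dcn was 0.76 ± 0.17 higher in rectum (1.69-fold; limma adjusted p = 0.0197), in 4 of 4 pairs. Lum encodes lumican, a relative of decorin, and Dcn and Lum are adjacent protein-coding genes on chromosome 10. Lum levels were 2.70, 3.05, 3.05 and 2.34 in rectum and 3.06, 2.52, 2.00 and 2.32 in colon. The tissues overlapped: the highest of the 8 arrays was a colon array, IL18ko stress. The Lum difference was 0.31 ± 0.23 (adjusted p = 0.353).

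Col1a2 encodes the alpha 2 chain that joins 2 alpha 1 chains in each type I collagen molecule. Its levels were 4.03, 4.34, 4.17 and 3.72 in rectum (IL18ko stress, IL18ko control, WT stress, WT control) and 3.96, 3.24, 3.11 and 3.04 in colon. The rectum arrays lay above the colon arrays except for IL18ko stress colon, which exceeded WT control rectum. Col1a2 was 0.73 ± 0.18 higher in rectum (1.66-fold; limma adjusted p = 0.0283), in 4 of 4 pairs. The calls of Col1a2 and Dcn rested on few arrays. Without the WT control pair their adjusted p was 0.110 and 0.0686, and without the IL18ko control pair 0.132 and 0.101, with differences between 0.60 and 0.83. Over all alternatives the adjusted p ranged from 0.0050 to 0.132 for Col1a2 and from 0.00624 to 0.101 for Dcn.

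Col1a1, the alpha 1 chain of type I collagen, was at 3.17, 3.60, 4.13 and 2.79 in rectum and at 3.62, 2.76, 2.34 and 2.50 in colon. The 4 pairs ran from -0.46 in IL18ko stress to 1.78 in WT stress. Their mean of 0.61 ± 0.33 was not called (limma adjusted p = 0.219), but without the IL18ko stress pair it was 0.97 with an adjusted p of 0.0484. A second Col1a1 probe was higher in rectum in 4 of 4 pairs, by 0.66 ± 0.14 (adjusted p = 0.0174). Col3a1, type III collagen of soft tissue, was at 4.01, 4.48, 4.90 and 4.28 in rectum and at 4.21, 3.24, 3.79 and 3.95 in colon. IL18ko stress colon again reached into the rectum range. The Col3a1 difference was 0.62 ± 0.25 (adjusted p = 0.111), or 0.90 with an adjusted p of 0.0218 without the IL18ko stress pair. Col5a1 encodes the main chain of type V collagen, which starts fibrils and sets their width. It was at 0.72, 0.93, 1.30 and 0.43 in rectum and at 1.07, 0.24, 0.25 and 0.23 in colon, with a difference of 0.40 ± 0.23 (adjusted p = 0.243). Apart from IL18ko stress, its colon arrays lay close together and below all rectum arrays.

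Col6a1, a chain of type VI collagen, was higher in rectum in 4 of 4 pairs, though by less. It stood at 0.71, 0.81, 0.45 and 0.36 in rectum (IL18ko stress, IL18ko control, WT stress, WT control) and at 0.47, 0.07, 0.04 and 0.11 in colon. The difference of 0.41 ± 0.12 had a limma adjusted p of 0.0520, and alternatives put it on either side of the threshold, from 0.0282 to 0.251. Together with Fn1, Dcn and Col1a2 this made 4 of 10 genes higher in every pair, against 26.4% of all genes.

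Sparc encodes a calcium-binding protein that attends collagen assembly. It was at 2.58, 2.79, 2.36 and 2.35 in rectum and at 2.73, 2.20, 2.10 and 2.14 in colon. The ranges overlapped through IL18ko stress colon alone, and the difference was 0.22 ± 0.14 (limma adjusted p = 0.269). Col4a1, the collagen of basement membranes, was at 0.78, 0.81, 0.14 and 0.44 in rectum and at 0.81, 0.33, 0.18 and 0.48 in colon. Those ranges nearly coincide. The estimate of 0.10 ± 0.13 (adjusted p = 0.629) rested on the IL18ko control pair, without which it was -0.04.

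The tissue difference of the 10 genes was unlike in the 4 mouse groups. Its median was -0.09 in IL18ko stress mice, with 4 of 10 genes above 0. In IL18ko control mice it was 0.79 with 10 of 10 above 0, in WT stress mice 1.05 with 9 of 10, and in WT control mice 0.27 with 9 of 10. Of all genes, 47.8%, 52.4%, 54.4% and 52.2% were above 0 in the same pairs. Each pair is 1 array against 1 array, so a single pair has no test.

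**Figure D2:**
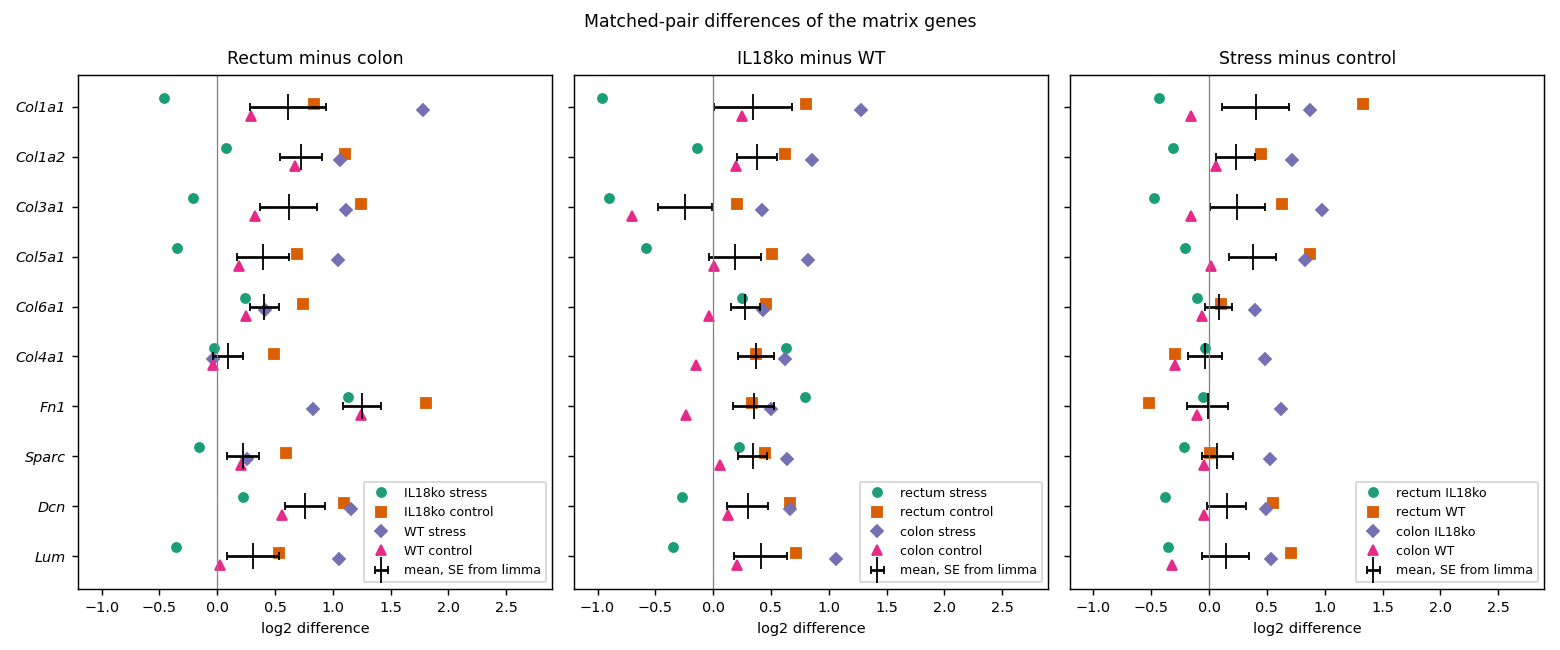
Matched-pair differences of the 10 matrix genes in log2 units, for rectum minus colon, IL18ko minus WT and stress minus control. Coloured symbols are the 4 pairs, each 1 array against 1 array, and the black bar is their mean with the SE from limma (n = 4 pairs). The Fn1 pairs lie between 0.83 and 1.81 in the first panel, and all 10 genes have pairs on both sides of 0 in the third.

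Markers of other cell types differed between the same arrays. Of 10 fibroblast markers, 4 were called higher in rectum and 0 lower, with 5 of 10 estimates above 0 and the median at 0.13. Skeletal muscle markers, 11 in all, had 6 called higher; their summed signal was 36.8, 167, 22.4 and 6.88 in rectum (IL18ko stress, IL18ko control, WT stress, WT control), against 3.39 to 5.97 in colon. Of 9 smooth muscle markers none was called, with sums of 475 to 680 in rectum and 522 to 797 in colon. Of 9 endothelial markers 1 was called higher (2.75 to 5.06 in rectum, 2.43 to 4.78 in colon). Adipocyte markers had 0 higher and 5 lower of 8 (20.1 to 51.2 in rectum, 38.0 to 72.7 in colon), and enteric neuron and glia markers 0 higher and 5 lower of 5 tested (3.73 to 5.79 in rectum, 13.7 to 17.2 in colon). Leukocyte markers had 3 of 7 higher (31.0 to 80.4 in rectum, 21.5 to 37.5 in colon) and squamous epithelium 3 of 5 higher (4.90 to 8.40 in rectum, 3.20 to 4.36 in colon). Crypt epithelium, with 1 of 9 higher and 2 lower, had sums of 1338 to 1565 in rectum and 1320 to 1495 in colon. The part of these cell types in the matrix gene differences was not tested.

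Genes beyond the 10 were read from 9 lists of matrix biology. Among fibril-forming collagens 1 of 6 tested was called higher in rectum and 1 lower: the cartilage collagen Col2a1 at 0.83 ± 0.23 and Col27a1 at -0.97 ± 0.26. Basement membrane genes had 4 of 17 called higher and 0 lower, among them the laminin chain Lama2 (0.93 ± 0.20) and Col4a6 (0.87 ± 0.13), a relative of Col4a1. Beaded and fibril-associated collagens went both ways, with 2 of 8 higher and 3 lower. Col17a1, of the hemidesmosomes of stratified epithelium, was above background on 4 rectum arrays and 0 colon arrays and was at least 3.90-fold higher in rectum. Such a bound sets the mean of the bright tissue against the lowest signal above background on each array of the dim one, or the probe's own signal where higher. Col14a1 was higher by 1.13 ± 0.25, while Col8a1 (-2.73 ± 0.18), Col23a1 (-2.02 ± 0.15) and Col8a2 (-0.87 ± 0.17) were lower.

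Small leucine-rich proteoglycans, the family of decorin and lumican, had 4 of 10 called higher and 1 lower. Epyc and Omd were above background on 4 rectum arrays and 0 colon arrays, at least 14.1-fold and at least 2.79-fold higher in rectum. Kera was above background on 1 colon array and had a fitted difference of 3.43 ± 0.37. Kera and Epyc, which encode keratocan and epiphycan, are the next protein-coding genes after Dcn and Lum on chromosome 10. Fmod, fibromodulin, was lower (-1.08 ± 0.24).

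Elastic fibre and glycoprotein genes had 8 of 21 called higher and 3 lower. The microfibril genes Mfap5 (2.07 ± 0.21) and Fbn1 (1.44 ± 0.21) and Fbln2 (0.91 ± 0.14) led the first, and Thbs1 (-1.58 ± 0.13), the second fibrillin Fbn2 (-0.96 ± 0.18) and Tnc (-0.81 ± 0.16) the other. Of the genes for collagen synthesis and cross-linking, 3 of 15 were higher: Pcolce2 (2.15 ± 0.21), which speeds procollagen cleavage, and the cross-linking oxidases Lox (0.94 ± 0.18) and Loxl1 (0.71 ± 0.17). A further 4 were lower, with the lysyl hydroxylase Plod2 (-0.98 ± 0.19), the prolyl hydroxylase subunit P4ha2 (-0.83 ± 0.13) and Loxl2 (-0.82 ± 0.22) the largest. The median of this list was -0.09, against 0.51 for the 10 genes.

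Matrix proteases and their inhibitors had 5 of 18 called higher and 2 lower. The tissue inhibitors Timp4 (3.25 ± 0.13) and Timp3 (1.17 ± 0.12) and the aggrecanase Adamts5 (1.47 ± 0.11) were higher, and matrilysin, Mmp7 (-3.40 ± 0.56), and Mmp10 (-0.85 ± 0.25) were lower. Mmp7 was above background on only 2 rectum arrays. Matrix receptors had 2 of 17 higher, Itgb4 (0.73 ± 0.09) and Sdc4 (0.73 ± 0.09), and 3 lower. Those were the collagen-binding integrin chains Itga2 (-2.75 ± 0.20, above background on 1 rectum array) and Itga1 (-0.64 ± 0.13) and the hyaluronan receptor Cd44 (-1.74 ± 0.23). TGF-beta drives collagen genes in fibroblasts, and of the genes of its signalling and early response 2 of 14 were higher, Tgfb1 (0.50 ± 0.14) and the receptor Tgfbr2 (0.40 ± 0.11). The response genes Ccn1 (-1.32 ± 0.11) and Tgfbi (-0.82 ± 0.15) and the inhibitor Smad6 (-0.62 ± 0.15) were lower, and the list's median was -0.22.

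**Figure D3:**
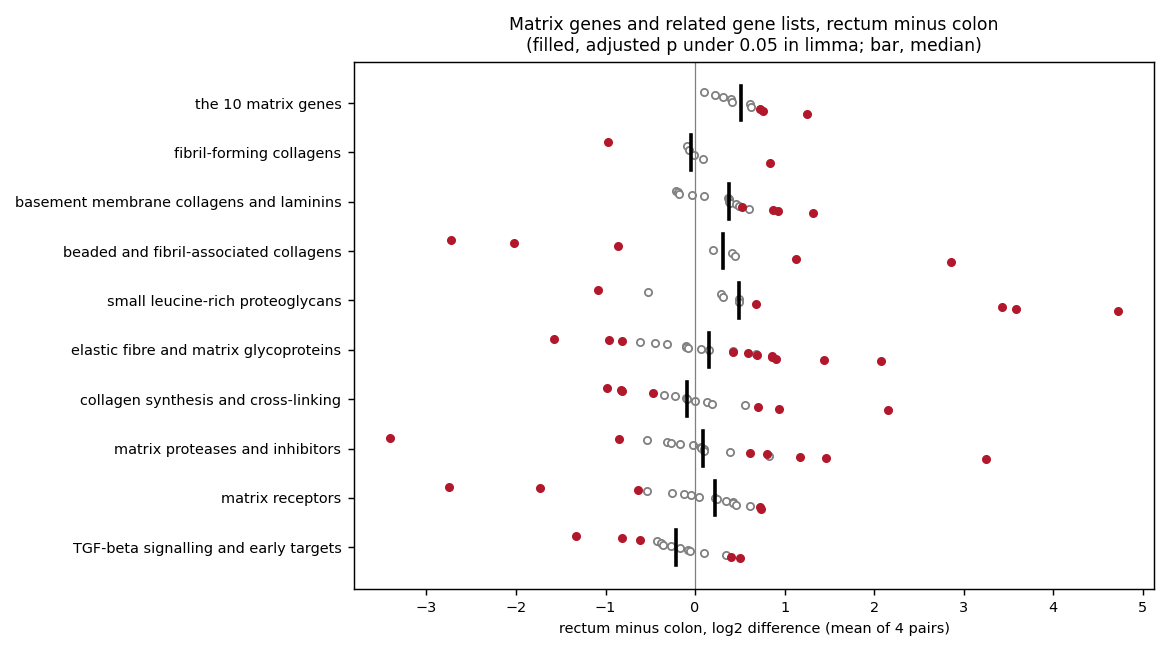
Rectum minus colon differences (log2, mean of 4 pairs) of the 10 matrix genes and of 9 related gene lists; each circle is 1 gene, filled where called by limma, and the vertical bar is the median. The 10 matrix genes all lie above 0 with a median of 0.51, while the lists below spread to both sides.

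The second comparison, IL18ko against WT, asked what loss of interleukin 18 changes. None of the 10 genes was called, with limma adjusted p from 0.265 to 0.715. Over all genes 0.0472% were called, 6 of 12716, while 2200 (17.3%) had an unadjusted p under 0.05, and 1 of the 10 matrix genes did. The estimates were above 0 for 9 of 10 genes, against 49.6% of all genes, with a median of 0.34 against 0.00 for all genes. Sparc, at 0.34 ± 0.13, was the gene with the unadjusted p under 0.05 (0.0311) and was higher in 4 of 4 pairs, as were 12.4% of all genes. Col3a1 was the gene with a negative estimate, -0.24 ± 0.24. The remaining 8 estimates lay between 0.19 ± 0.23 (Col5a1) and 0.41 ± 0.23 (Lum).

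The pairs differed more than these means. Among stressed mice the rectum median was -0.20 with 4 of 10 genes above 0, and the colon median 0.65 with 10 of 10 above 0. Among control mice the rectum median was 0.48 with 10 of 10 above 0, and the colon median 0.03 with 6 of 10. Of all genes 47.4%, 53.0%, 48.4% and 50.7% were above 0 in these pairs, in the same order. In stressed rectum the 10 genes divided. Fn1 (0.80), Col4a1 (0.63), Col6a1 (0.25) and Sparc (0.22) were above 0 there, while Col1a1 (-0.96), Col3a1 (-0.90), Col5a1 (-0.58), Lum (-0.35), Dcn (-0.27) and Col1a2 (-0.14) were below. These are the brightest probes, and the side depended on the probe for Col1a1, Sparc and Fn1. In this pair the second Col1a1 probe was at 0.45 and the second Sparc probe at -0.58. The third Col1a1 probe, far dimmer but above background on both arrays of the pair, was at -0.68. The dimmest Fn1 probe, above background on both arrays of the pair, was at -0.07.

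Leaving out the stressed rectum pair changed the calls. Col1a1 (0.78, adjusted p = 0.0421), Col1a2 (0.56, 0.0408), Dcn (0.49, 0.0453) and Lum (0.66, 0.0447) then passed in limma, among 2559 probes called where the 4 pairs gave 13. The genotype difference was not shown to differ between tissues for any of the 10 genes. For Col1a1 it averaged -0.08 in rectum and 0.77 in colon, a difference of -0.85 ± 0.59 (limma adjusted p = 0.831). The sign of that difference turned with the probe, to 0.21 with the second Col1a1 probe and 0.13 with the mean of all probes. For Fn1 it averaged 0.57 in rectum and 0.13 in colon, a difference of 0.43 ± 0.33. Of all 12716 genes 0 were called in that test (0.0%), with 332 (2.61%) at an unadjusted p under 0.05. No marker of the cell types that follow was called with genotype. Estimates were above 0 for 9 of 9 smooth muscle, 9 of 9 endothelial and 8 of 8 adipocyte markers, with medians of 0.53, 0.55 and 1.31. They were above 0 for 10 of 11 skeletal muscle, 5 of 5 enteric neuron and glia and 9 of 10 fibroblast markers, with medians of 1.1, 0.61 and 0.32. Crypt epithelium had 4 of 9 above 0, leukocyte markers 3 of 7 and squamous epithelium 3 of 5, with medians of -0.02, -0.07 and 0.28. Their part in the estimates of the matrix genes was not tested.

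The third comparison, stress against control, asked what isolation changes. None of the 10 genes was called, with limma adjusted p from 0.864 to 0.988, and 0 of all 12716 genes were called (0.0%). At an unadjusted p under 0.05 there were 464 genes (3.65%), none of the 10 among them. Estimates ran from -0.04 ± 0.15 for Col4a1 to 0.40 ± 0.29 for Col1a1.

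The 4 pairs went in opposite directions, counted here by the brightest probe of each gene. In rectum of IL18ko mice all 10 genes were lower under stress, with a median of -0.26, from -0.48 for Col3a1 to -0.04 for Col4a1. Other probes of Fn1 (0.02 and 0.07), Col3a1 (0.01) and Col5a1 (0.16) were above 0 there, while those of Col1a1, Col4a1 and Sparc were below. In rectum of WT mice 8 of 10 were higher, with a median of 0.50. In colon of IL18ko mice all 10 were higher, with a median of 0.58, from 0.40 for Col6a1 to 0.97 for Col3a1. In colon of WT mice 2 of 10 were above 0 and the median was -0.09. Of all genes 48.3%, 53.1%, 56.8% and 49.8% were above 0 in these pairs, in the same order. Each is 1 pool against 1 pool, so the differences have no replicate check.

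The WT rectum pair shares the WT stress rectum array with the genotype pair of stressed rectum, so the 2 pairs are not independent. Col1a1 was 1.33 higher under stress, Col5a1 0.87, Lum 0.71, Col3a1 0.63, Dcn 0.55 and Col1a2 0.45. Fn1 was -0.52 and Col4a1 -0.30, with Col6a1 at 0.10 and Sparc at 0.01. The smooth muscle sum was 475 in WT stress rectum and 551 in WT control rectum, with mean log2 levels of 4.17 and 4.65. The fibroblast sum, which follows mainly Gsn, was 234 in WT stress rectum and 161 in WT control rectum. Mean log2 levels of the fibroblast markers were 0.25 and 0.03. For leukocyte markers the 2 measures ran opposite ways, with sums of 80.4 and 45.2 but mean log2 levels of -1.35 and -1.24 in the same arrays. Their part in the values of the matrix genes was not tested.

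Ranks within a tissue show the same arrays. The IL18ko stress array was the highest of the 4 colon arrays for 10 of 10 matrix genes and for 37.1% of all genes. In rectum the IL18ko control array was the highest for 7 of 10, against 14.7% of all genes, and WT stress for the other 3, Col1a1, Col3a1 and Col5a1, against 40.6%. The WT control array was the lowest of the rectum for 7 of 10, against 24.2% of all genes. The summed level of the 10 genes was 106, 136, 138 and 92.2 in rectum (IL18ko stress, IL18ko control, WT stress, WT control) and 106, 67.0, 63.8 and 67.8 in colon. That sum weights the brightest probes most. In the same order, mean log2 levels of the 10 genes were 2.58, 2.84, 2.71 and 2.33 in rectum. In colon they were 2.57, 1.93, 1.84 and 1.95. On the IL18ko stress colon array the sums of fibroblast (136), endothelial (4.78), smooth muscle (797) and leukocyte (37.5) markers were the highest of the colon too. So were those of enteric neuron and glia (17.2) and, by little, adipocyte (72.7) and crypt epithelium (1495) markers, with 72.0 and 1491 on IL18ko control colon. The sums of skeletal muscle and squamous epithelium markers were highest on WT stress colon. By mean log2 level 3 of these ranks changed. Adipocyte markers were highest on IL18ko control colon (1.24, with 1.02 on IL18ko stress), as were crypt epithelium markers (6.591 and 6.586). Squamous epithelium markers were highest on IL18ko stress colon (-1.74, with -1.84 on WT stress). The part of those cell types was not tested.

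Tests of whether the stress difference depends on tissue or genotype called 0 of 12716 genes each, with 82 (0.645%) and 187 (1.47%) at an unadjusted p under 0.05 and none of the 10 among them. The largest value among the 10 was that of Fn1 by genotype, 0.29 in IL18ko and -0.31 in WT, a difference of 0.60 ± 0.31 (limma adjusted p = 0.9998). With 2 pairs a side, the intervals are wide: for Col1a1 the same difference was -0.37 ± 0.60.

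Probes of 1 gene did not always give the same course over the arrays. For Col1a1, whose brightest probe was printed 10 times on each array, the spots agreed closely, with an SD of 0.05 to 0.08 in log2. Its second probe, above background on all 8 arrays, was at -0.99, -0.89, -1.43 and -1.53 in rectum and at -1.42, -1.98, -2.02 and -2.05 in colon (IL18ko stress, IL18ko control, WT stress, WT control). In WT rectum it was 0.10 higher under stress where the brightest probe was 1.33 higher, and r between the probes was 0.68 over the 8 arrays. The third Col1a1 probe, far dimmer and below background on the WT control rectum array, was at 0.48 in that pair. The Col1a1 difference of 1.33 therefore rests on the brightest probe alone.

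Sparc showed the opposite. Its second probe stood at 2.13, 2.56, 2.71 and 1.93 in rectum and at 2.47, 1.83, 1.53 and 1.86 in colon. In WT rectum it was 0.78 higher under stress where the brightest probe was 0.01 higher (r = 0.75). For Fn1 the brightest and second probes ran in parallel (r = 0.99), at -0.52 and -0.60 in that pair, and for Col4a1 r was 0.83. The third Fn1 probe, far dimmer, went the other way in that pair, at 0.68. It was above background on both arrays of the pair, and on 5 of the 8 arrays. The second Col5a1 probe, far dimmer, ran against the brightest (r = -0.32), and was high on the WT stress colon array only, at -3.21, with -5.51 to -5.05 on the other 7.

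**Figure D4:**
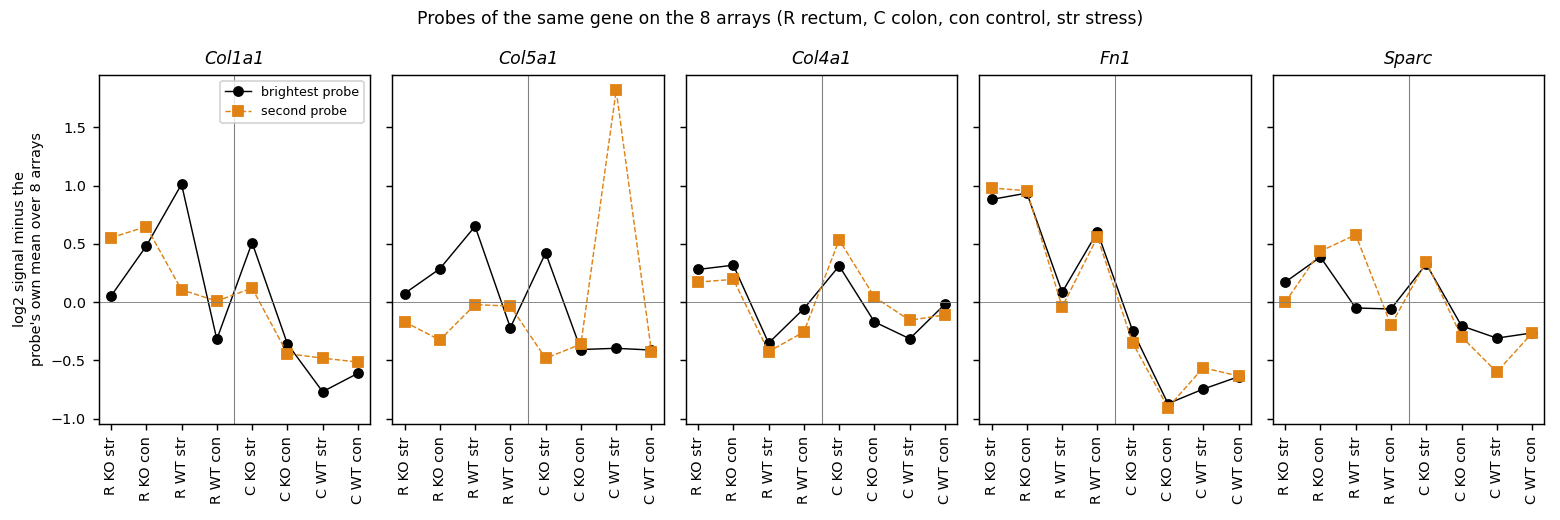
Level of the brightest (black circles) and second probe (orange squares) of 5 genes on the 8 arrays, each minus its own mean, in log2 units; R is rectum, C is colon, KO is IL18ko, str is stress and con is control. The Fn1 probes run together, the Col1a1 probes part on the WT stress rectum array, and the second Col5a1 probe stands out on WT stress colon.

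Within tissues the 10 genes formed a graded pattern. After each tissue's mean was taken off, r over the 8 arrays was 0.97 for Col1a1 with Col5a1 and for Col1a2 with Dcn, and 0.96 for Dcn with Lum. A second close group held Col6a1 with Sparc (0.96) and Col4a1 with Fn1 (0.95). Between these groups r ran from 0.00 for Col1a1 with Fn1 to 0.90 for Col1a2 with Sparc, so the groups were not separate. It was 0.18 for Col1a1 with Col4a1, but 0.84 for Col1a2 with Col6a1 and 0.82 for Dcn with Sparc. Col3a1 gave -0.07 with Fn1 and 0.73 with Col5a1. All are for the brightest probes. These values describe 8 arrays that share their scaling, and were given no test.

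**Figure D5:**
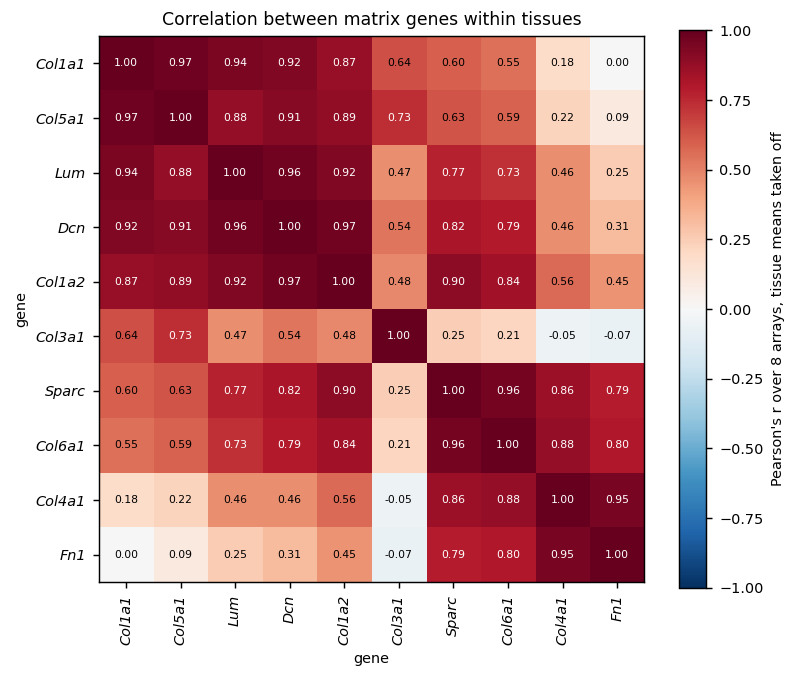
Pearson's r between each pair of the 10 matrix genes over the 8 arrays, after each tissue's mean was taken off. Red squares are pairs with r above 0; Col1a1, Col5a1, Lum, Dcn and Col1a2 reach 0.87 to 0.97 among themselves, and Fn1 lies near 0.00 with Col1a1 and at 0.95 with Col4a1.

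The genes most like the mean of the 10 were sought among 11785 others above background on all arrays. Over the 8 arrays these were Matn2 (r = 0.985) and Thbs3 (0.984), a matrilin and a thrombospondin of the matrix, the hindlimb homeobox gene Pitx1 (0.981) and the Fc receptor chain Fcer1g (0.980), followed by Gpsm3, 4921507P07Rik, Pnrc1 and Plekha4 (0.977 to 0.979). With tissue means taken off, they were Fxyd5 (0.993), the matrix protein gene Fbln1 (0.992), Adam23 (0.991), the macrophage growth factor Csf1 (0.988), Cd109 (0.986), the laminin chain Lamc1 (0.984), Sgce (0.981) and Jun (0.979). The 10 genes themselves ranged from 0.53 (Col4a1) to 0.99 (Col1a2) over the arrays, and from 0.48 (Fn1) to 0.98 (Col1a2) within tissues. Fbln1 was at 0.44, 0.70, 0.57 and 0.01 in rectum (IL18ko stress, IL18ko control, WT stress, WT control) and at 1.76, 0.85, 0.63 and 0.93 in colon. It followed the 10 genes inside each tissue, which is the trait it was picked by. Its rectum minus colon difference of -0.61 was not called.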

How the data were processed

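Total RNA from mucosa of 8 groups was labelled with Cy3 and hybridised to 1-colour Agilent whole mouse genome arrays, per the labels' protocols. Per the file headers, the scanner files hold linear intensity per spot, with background-corrected intensity from Feature Extraction 9.5.1.1, 1 array per file. The values deposited in a table are, per the labels, each array's linear ratio to WT control colon. Their log2 followed the same ratio from the scanner files with r 0.995 to 0.999 over 18299 features, with column medians from -0.03 to 0.16; their scaling is not given in the sources used here.

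Control and outlier spots were left out and spots averaged per probe, leaving 40963 of 41174 probes. Transcript accessions paired 22857 probes with 16309 genes through RefSeq (GRCm38.p6); 18106 probes had no gene and 0 had several. The intensity was set relative to the 75th percentile of its array and put in log2. Tested probes lay well above background on 4 or more of the 8 arrays (26265 probes, 12716 genes), and the brightest probe stood for its gene. All 10 matrix genes passed.

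limma 3.58.1 (R 4.3.3; lmFit, and eBayes with the variance trended on mean level) was fitted to 4 matched differences per comparison, with tissue or genotype as a term for tests of dependence. Values after ± are SE from limma. The fit was tested on simulated data. Figures used Python 3.11.15, pandas 2.3.3, numpy 2.4.6 and matplotlib 3.10.9. The number of arrays limits the precision, and p-values measure the spread between pairs only.

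The 10 genes, the 9 related lists and the marker lists were chosen with earlier results of these data known. All 10 genes are named; from each related list, up to 3 called genes with the largest difference in each direction; and the 8 genes most like the mean of the 10. One gene that this rule names is not reported here. Alternatives were quantile normalization, median centring, normexp background correction (offset 50; median signal and local background, leaving out spots more than 50 units below it), the deposited ratios, other background filters, no variance trend, the mean of all probes, the 8 arrays as independent, tissue means (for genotype and stress) and leaving out each pair. The second-brightest probe was added after seeing the data.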

Additional observations from a re-analysis of the deposited data

Results flagged for a closer look

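The rectum minus colon difference of Col4a1 in the IL18ko control pair was 0.49, far from the other 3 pairs, which lay between -0.04 and -0.03. Of 30 sets of 4 pairs looked at, this was the 1 with such a gap, and chance gives about 1 in 20. On the IL18ko control rectum array, where Col4a1 stood at 0.81, the skeletal muscle sum was also the highest of all arrays, at 167; its part in the value was not tested.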

How the results depend on the processing

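Between rectum and colon, 7097 probes and 3 of the 10 matrix genes were called. The mean of all probes of a gene gave 4192 calls (of 12718 genes) and 5 matrix genes, the added ones being Col1a1 and Col6a1. Leaving out 1 pair gave 3479 probes (without WT control) to 10577 (without WT stress), and 1 to 5 matrix genes: 1 without WT control or IL18ko control, 5 without IL18ko stress. Between IL18ko and WT, 13 probes were called, 7 with probes above background on all 8 arrays, 32 with the arrays as independent and 3047 with tissue means. Leaving out 1 pair gave 3 probes (without colon control or rectum control) to 2559 (without rectum stress). No matrix gene was called there, 3 were with tissue means (Col1a2, Sparc and Lum), and leaving out 1 pair gave 0 to 4. Between stress and control, 0 probes were called, and 23 with tissue means, none of them a matrix gene. The other counts stayed within 1.5 times.

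The signs of these estimates turned, none of them past the threshold. Rectum minus colon was -0.031 for Col4a1 with the mean of all probes and -0.16 with the second probe, and -0.035 to 0.14 without 1 pair (lowest without IL18ko control); Col5a1 was -0.27 with the second probe. IL18ko minus WT for Col5a1 was -0.24 with the mean of all probes, -0.67 with the second probe, and -0.022 to 0.44 without 1 pair (lowest without colon stress). Stress minus control was 0.013 and 0.063 for Col4a1, and 0.086 and 0.012 for Fn1, with the mean of all probes and the second probe. Without 1 pair it ran from -0.00075 to 0.48 for Col3a1, -0.024 to 0.14 for Col6a1, -0.21 to 0.050 for Col4a1, -0.23 to 0.15 for Fn1, -0.084 to 0.17 for Sparc and -0.046 to 0.31 for Lum. The low ends were without colon IL18ko, or for Lum without rectum WT. For Col1a1 the genotype difference by tissue was 0.13 (mean of all probes) and 0.21 (second probe), and with the second probe the stress difference was -0.30 by tissue and 0.17 by genotype. The cause was not tested. The median of all genes moved by over 0.1 in 1 case, the genotype difference by tissue, at 0.09 with the deposited ratios against -0.04. The labels give no replicate numbers, so no replicate block was fitted beyond the pairs matched by group. A block for slide could not be fitted between tissues, and dim probes such as the second of Col5a1 carry the noise of low signal.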
